A study of Mus musculus with 14 samples.

Results

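Transcripts of 40 mouse genes that carry a cell through mitosis and cytokinesis were followed in lung epithelium mutant for Nkx2-1. The genes were chosen by name for their function, with earlier results of these data known. They are 40 of the 35492 distinct gene names in the deposited expression tables. For alveolar type 2 (AT2) cells 34 of them were listed, where Ccna2, Kif11, Kif20a, Smc4, Incenp and Ndc80 did not appear under those names. All 40 were listed for alveolar type 1 (AT1) cells and for whole lung.

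The study profiled messenger RNA in 14 libraries by RNA-seq. Nkx2-1 is a homeodomain regulator needed for lung and thyroid development, AT2 cells secrete surfactant, and AT1 cells are the thin cells through which gas is exchanged. AT2 cells gave 3 mutant and 3 control libraries, lettered A to C in each arm and named by a cross of Nkx2-1 with Sftpc, where libraries A and B of each arm came from postnatal day 8 and library C from day 9. AT1 cells, purified by flow sorting on day 5, gave 3 mutant and 3 control libraries named by a cross of Nkx2-1 with Aqp5. Whole lobes of the Nkx2-1 and Aqp5 cross on day 14 gave 1 mutant and 1 control library. The labels name no treatment. Sftpc is active in AT2 cells and Aqp5 in AT1 cells. The sources used here do not name the alleles, what the controls carry, the deleted stretch of Nkx2-1 or the way in which AT2 cells were isolated. The labels do not say that libraries of an arm came from separate animals, so p-values measure only the spread between these libraries.

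Cells enter mitosis when cyclin B binds and activates the kinase Cdk1, and the Polo and Aurora kinases then drive centrosome maturation, spindle assembly and chromosome attachment. Kinetochore proteins hold chromosomes to spindle microtubules, the spindle checkpoint delays anaphase until all are attached, and the anaphase-promoting complex with Cdc20 then marks cyclins and securin for destruction. The central spindle and a contractile ring finally divide the cell. Most of these transcripts accumulate late in the cell cycle and are scarce in cells that have left it. In the postnatal lung AT2 cells can divide, whereas AT1 cells rarely do.

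Genes of this kind are known to share 2 short promoter elements. One is the cell cycle genes homology region (CHR), bound by the MuvB core in the DREAM complex and together with B-Myb and FoxM1. The other is the CCAAT box, bound by NF-Y. The promoters are therefore described here ahead of the expression values. RefSeq promoters on GRCm38.p6, from 250 bases before to 50 bases after a gene's start, were held for 34 of the 40 genes (35 promoters, since Prc1 has more than 1 start). Motifs were searched on both strands as TTTGAA or TTCGAA for the CHR and as CCAAT, and a match to the one can share no more than 1 end base with a match to the other. Other forms of the CHR were not searched, so a promoter without a match may still hold one. A CHR motif was present in 80% of these promoters, against 19.2% of the 32851 promoters of the whole table, and CCAAT in 80%, against 37.4%. Both were present in 71.4% of them, against 7.52% of all promoters. Of 37 CHR matches, 26 lay within 60 bases of the start, with a median position 5 bases before it, whereas CCAAT had its median 68 bases before the start. The Prc1 windows overlap, so these shares and counts hold the same Prc1 CHR and CCAAT sites more than once. Matches are a description of letters in these windows, not of binding. The 6 promoters below are shown because they span the range, with capitals marking every match on either strand. Cdk1 (chr10:69352863-69353162, minus strand) and Ccnb2 (chr9:70421505-70421804, minus) hold matches to both elements more than once. Plk1 (chr7:122159185-122159484, plus) and Ube2c (chr2:164769679-164769978, plus) hold a single CHR match. Ccnb1 (chr13:100786437-100786736, minus) holds CCAAT but no match to the searched CHR forms, and Nuf2 (chr1:169531415-169531714, minus) holds no match to either element.
Cdk1: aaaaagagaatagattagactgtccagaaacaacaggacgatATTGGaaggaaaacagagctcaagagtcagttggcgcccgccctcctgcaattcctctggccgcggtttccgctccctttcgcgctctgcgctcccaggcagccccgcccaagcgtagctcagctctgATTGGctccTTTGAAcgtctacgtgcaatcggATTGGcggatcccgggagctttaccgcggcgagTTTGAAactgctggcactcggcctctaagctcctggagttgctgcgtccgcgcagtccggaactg
Ccnb2: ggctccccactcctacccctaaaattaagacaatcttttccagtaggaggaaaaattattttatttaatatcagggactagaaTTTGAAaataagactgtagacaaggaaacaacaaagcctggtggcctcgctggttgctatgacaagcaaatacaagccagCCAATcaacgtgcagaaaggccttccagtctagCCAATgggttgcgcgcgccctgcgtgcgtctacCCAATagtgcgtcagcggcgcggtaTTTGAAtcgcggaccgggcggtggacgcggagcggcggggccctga
Plk1: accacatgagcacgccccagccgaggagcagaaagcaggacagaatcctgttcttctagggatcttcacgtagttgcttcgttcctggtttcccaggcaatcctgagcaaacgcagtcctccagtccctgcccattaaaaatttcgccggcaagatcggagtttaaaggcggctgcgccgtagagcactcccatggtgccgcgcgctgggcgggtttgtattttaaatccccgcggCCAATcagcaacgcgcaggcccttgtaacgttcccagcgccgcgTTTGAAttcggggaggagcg
Ube2c: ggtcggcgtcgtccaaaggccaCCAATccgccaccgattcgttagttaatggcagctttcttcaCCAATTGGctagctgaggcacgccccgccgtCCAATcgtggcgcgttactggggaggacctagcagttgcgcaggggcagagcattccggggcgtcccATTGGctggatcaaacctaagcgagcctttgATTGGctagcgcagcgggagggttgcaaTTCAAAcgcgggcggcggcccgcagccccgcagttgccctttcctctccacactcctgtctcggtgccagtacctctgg
Ccnb1: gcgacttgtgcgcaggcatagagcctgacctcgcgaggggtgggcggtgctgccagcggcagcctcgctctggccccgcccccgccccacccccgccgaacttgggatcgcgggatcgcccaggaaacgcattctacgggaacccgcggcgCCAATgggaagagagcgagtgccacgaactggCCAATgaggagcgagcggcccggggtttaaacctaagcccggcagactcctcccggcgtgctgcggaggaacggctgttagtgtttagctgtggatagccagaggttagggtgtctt
Nuf2: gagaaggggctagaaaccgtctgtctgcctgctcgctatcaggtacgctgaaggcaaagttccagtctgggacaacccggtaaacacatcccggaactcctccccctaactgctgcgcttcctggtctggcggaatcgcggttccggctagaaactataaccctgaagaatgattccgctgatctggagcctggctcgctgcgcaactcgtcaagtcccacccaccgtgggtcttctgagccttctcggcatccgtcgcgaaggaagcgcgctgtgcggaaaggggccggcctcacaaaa

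Nkx2-1 was lower in the mutants of both cell types, which checks the labels. It measured 74.4, 59.0 and 73.4 FPKM (fragments per kilobase of transcript, relative to library size) in AT2 mutants A to C, against 247, 289 and 353 FPKM in AT2 controls (log2 change -2.08 ± 0.16, SE; limma adjusted p = 7.31e-05). AT1 values were 22.8, 55.8 and 68.2 FPKM in mutants, against 262, 281 and 240 FPKM in controls (-2.53 ± 0.36; limma adjusted p = 0.00639), and lung values were 52.1 FPKM in the mutant, against 101 in the control. Summed FPKM ran from 458291 to 983397 over the 14 libraries, and depth in reads is unknown. Summed AT2 cell markers (6 genes) lay between 1715 and 3403 FPKM in AT2 mutants, against 81441 to 109421 in AT2 controls, and summed AT1 cell markers (8 genes) between 1143 and 2426 FPKM in AT1 mutants, against 8094 to 9896 in AT1 controls. The sorted AT1 libraries also held AT2 markers, at 2675 to 10943 FPKM in mutants and 7619 to 17440 in controls. Control A of the AT1 cells stood apart from the other AT1 libraries in the mitosis genes, and the AT1 count and range, and the values of leading genes, are also given without it.

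In AT2 cells, 34 of 34 listed genes rose in the mutants. The change was tested on log2(FPKM + 1), a scale that understates changes of weakly expressed genes, and called at a limma adjusted p under 0.05 over 11610 loci, of which 32.4% were called higher and 22.3% lower. The median log2 change was 2.04, against 0.09 over all loci tested. Mean FPKM in mutants was 2.73 (Bub1) to 5.99 (Anln) times that in controls, with a median of 4.58, and limma adjusted p-values ran from 2.58e-05 (Spc25) to 0.00167 (Bub1). All 34 genes had every mutant library above every control library, a separation seen in 38.2% of loci, and the lowest mutant value was at least 1.63 times the highest control value. These calls held in every alternative fit run, the day 8 libraries taken alone among them.

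The AT2 libraries of day 9 were the higher ones in both arms. Mutant C was the highest mutant library in 32 of 34 genes, at a median of 1.21 times the mean of mutants A and B, and control C was the highest control in 34 of 34, at 1.73 times the mean of controls A and B. Taken by letter, the median log2 difference was 2.19 for pair A, 2.13 for pair B and 1.76 for pair C, the pair of day 9. With 1 library per arm on day 9, the day and the library cannot be told apart.

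In AT1 cells, 39 of the 40 genes rose in the mutants and none fell, where 11.6% of 12612 loci were called higher and 6.22% lower by the same test. The median log2 change was 1.60 over the 40 genes and 0.00 over all loci tested. Among the 39, the ratio of mean FPKM in mutants to mean FPKM in controls ran from 2.25 (Incenp) to 5.22 (Ube2c), with a median of 3.38, and limma adjusted p-values ran from 0.00508 (Anln) to 0.0433 (Bub1). The lowest mutant library lay above the highest control library in 39 genes, a separation seen in 23.6% of all loci tested.

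Among the AT1 controls, library A was the lowest in 40 of 40 genes, whereas it was the lowest control in 39.7% of all loci tested. It held a median of 30.3% of the mean of controls B and C, from 16.3 to 80.8%, and 11 of the 40 genes were under 1 FPKM there. Control A also had the lowest sums of endothelial, leukocyte and mesenchymal markers among the AT1 controls (260, 174 and 1188 FPKM), and the highest sum of airway markers (4623 FPKM, against 1116 and 881 in controls B and C). Without control A, 38 of 40 genes were still called higher (limma; 9.17% of all loci were then called higher), with Bub1 the one lost, and the median log2 change was 1.18. The changes of the genes other than Smc4 (0.11) then ran from 0.75 (Bub1) to 1.87 (Ube2c). Set against the mean of controls B and C alone, mutant means were 1.09 to 3.83 times as high, with a median of 2.62.

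Leaving out an AT1 mutant library ended many calls but no direction. Without mutant A, 4 of the 40 genes passed (Anln, Cdca8, Cenpf and Nek2; 2.24% of all loci were then called higher), at log2 changes of 1.11 to 2.5 for the genes other than Smc4 and limma adjusted p-values of 0.0297 to 0.126. Without mutant B 18 genes passed (5.56% of all loci), and without mutant C 16 passed (5.06%). Without control B 38 passed (8.69%), and without control C 35 passed (7.31%). With no filter on low values 24 of the 40 genes passed, where 5.72% of 18317 loci were called higher. Every one of the 40 genes stayed above 0 in each of these fits. Taken by letter, the median log2 difference in AT1 cells was 2.38 for pair A, 1.13 for pair B and 1.32 for pair C, and with letters as a block 39 genes were called higher.

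**Figure D1:**
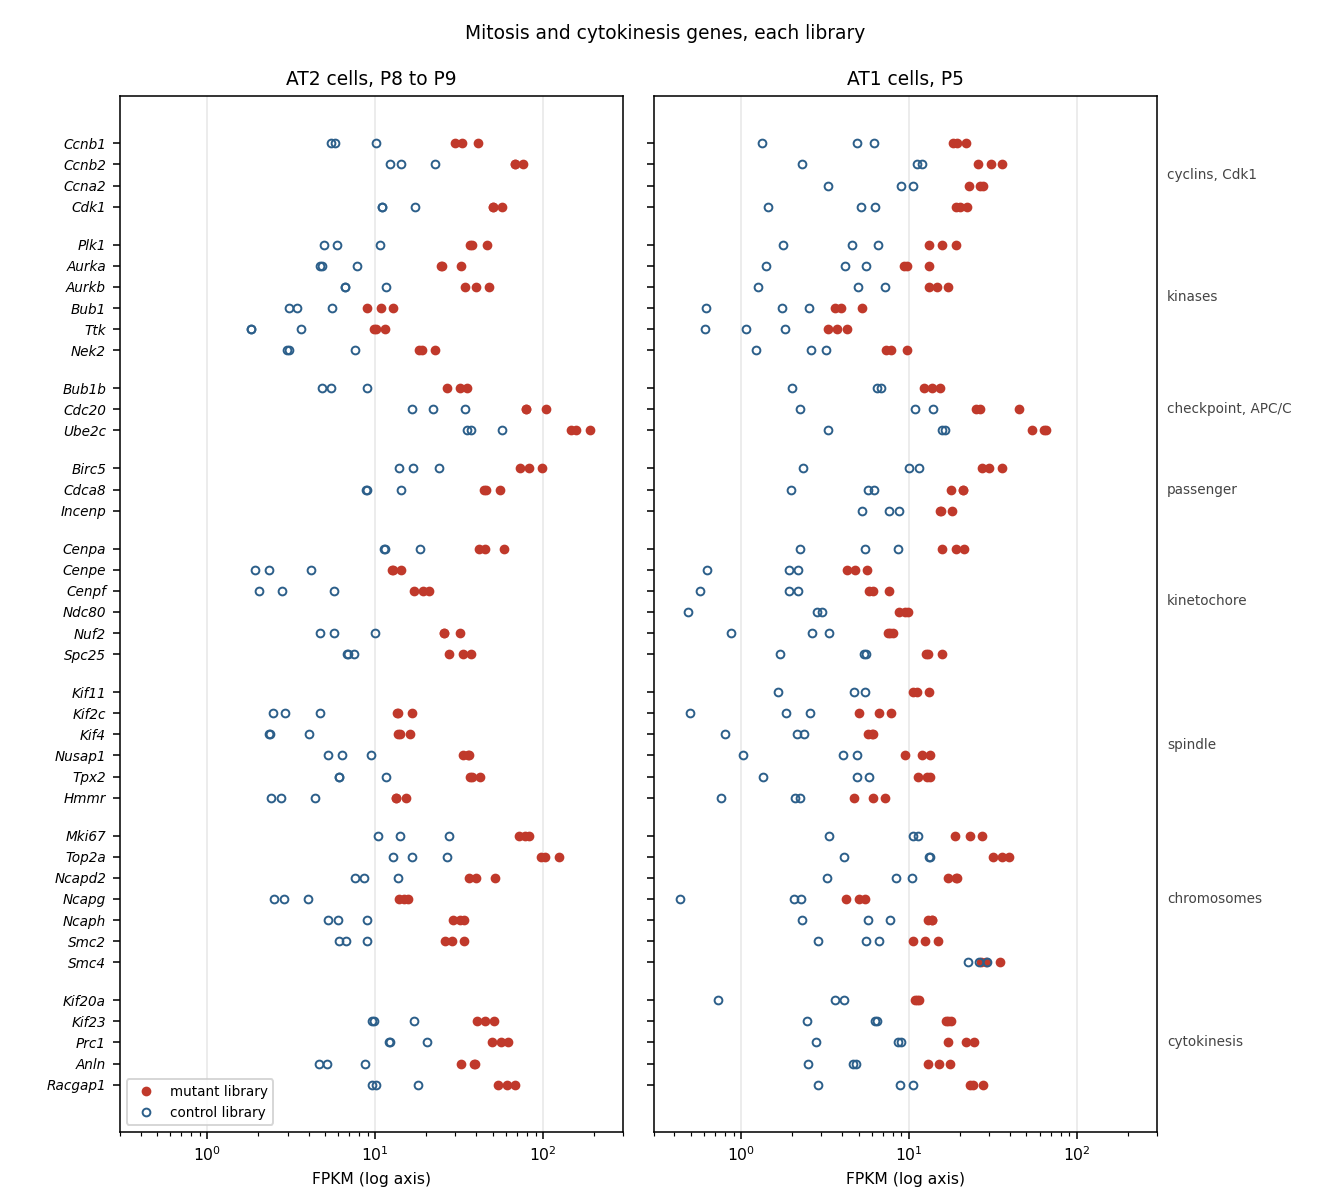
FPKM on a log axis of each gene (rows, grouped by role) in each AT2 library (left) and AT1 library (right), with filled points for mutants and open points for controls. Mutant points lie right of all control points in every row except Smc4 in AT1 cells, and the leftmost AT1 control point of each row is control A. The 6 genes not listed for AT2 cells have no points there.

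Cyclins and Cdk1, the engine of mitotic entry, had a median log2 change of 2.08 in AT2 cells (3 of 3 higher) and 2.06 in AT1 cells (4 of 4 higher). Cdk1 (chromosome 10: 69335146 to 69352938, minus strand, GRCm38), the mitotic kinase itself, measured 50, 50.2 and 57.1 FPKM in AT2 mutants A to C, against 10.9, 10.9 and 17.2 FPKM in AT2 controls A to C. The arms were far apart, and the day 9 library was the highest of each (1.96 ± 0.17, SE, n = 3 per arm; limma adjusted p = 0.00012). AT1 values were 22.1, 20.0 and 19.0 FPKM in mutants, against 1.44, 6.28 and 5.16 FPKM in controls. All 3 mutants were more than 3 times as high as the highest control, and control A was the lowest library. The AT1 change was 2.16 ± 0.37 (limma adjusted p = 0.0115). It was 1.67 without control A (limma adjusted p = 0.00242) and 2.1 without mutant A (limma adjusted p = 0.057). Among all 40 genes, only Anln, Cdca8, Cenpf and Nek2 kept the AT1 call without mutant A.

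Ccnb1, the cyclin B that is the main partner of Cdk1 in mitosis, measured 32.8, 30.0 and 40.7 FPKM in AT2 mutants, against 5.42, 5.73 and 10.1 FPKM in AT2 controls. The arms did not overlap (2.17 ± 0.22; limma adjusted p = 0.000221). Its AT1 values were 18.2, 21.8 and 19.3 FPKM in mutants, against 1.33, 6.16 and 4.92 FPKM in controls, again without overlap (2.17 ± 0.38; limma adjusted p = 0.012; 1.67 without control A). Ccnb2, another B-type cyclin, changed by 2.08 in AT2 cells and 1.96 in AT1 cells. Ccna2, the cyclin of S phase and early mitosis, measured 27.5, 22.6 and 26.5 FPKM in AT1 mutants, against 3.28, 10.5 and 9.00 FPKM in AT1 controls.

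The mitotic kinases rose in both cell types, 6 of 6 in each, with log2 changes of 1.27 (Bub1) to 2.38 (Plk1) in AT2 cells and 1.06 (Bub1) to 1.78 (Plk1) in AT1 cells. Plk1 (chromosome 7: 122159439 to 122169873, plus strand), the Polo kinase of centrosomes, kinetochores and the midzone, measured 36.4, 37.7 and 46.2 FPKM in AT2 mutants, against 4.95, 5.94 and 10.7 FPKM in AT2 controls, a ratio of means of 5.57. AT1 values were 15.7, 18.9 and 13.2 FPKM in mutants, against 1.78, 6.48 and 4.56 FPKM in controls. The AT1 arms were separate but control A was well below the other controls (1.78 ± 0.34; limma adjusted p = 0.015; 1.38 without control A). Bub1, a checkpoint kinase of the kinetochore, had the smallest AT2 change and the weakest AT1 call. It measured 3.93, 3.61 and 5.24 FPKM in AT1 mutants, against 0.613, 1.74 and 2.52 FPKM in AT1 controls, and without control A its limma adjusted p was 0.0535 at a log2 change of 0.75. Aurka, the Aurora kinase of spindle poles, Aurkb, the Aurora kinase of centromeres and midzone, Nek2, which separates centrosomes, and Ttk (Mps1), which starts checkpoint signalling, lay between Bub1 and Plk1 in both cell types.

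The genes of the checkpoint and the anaphase-promoting complex included the most abundant one in mutants. Ube2c (chromosome 2: 164769898 to 164778822, plus strand), the ubiquitin-conjugating enzyme of that complex, measured 156, 146 and 191 FPKM in AT2 mutants, against 35, 37 and 57.1 FPKM in AT2 controls (1.93 ± 0.20; limma adjusted p = 0.000221). AT1 values were 63.7, 65.6 and 54.0 FPKM in mutants, against 3.27, 15.6 and 16.3 FPKM in controls. It had the largest AT1 change (2.53 ± 0.49; limma adjusted p = 0.0152; 1.87 without control A) and the highest level of the listed genes in every mutant library of both cell types and of lung. Cdc20, the activator of the complex, measured 25, 45.3 and 26.3 FPKM in AT1 mutants, against 2.25, 13.8 and 10.8 FPKM in AT1 controls. Mutant B was well above the other mutants, and the SE of 0.53 was the largest among the 40 (log2 change 1.95; limma adjusted p = 0.042; 1.28 without control A). Bub1b, which encodes the checkpoint protein BubR1 that holds Cdc20 back, changed by 2.16 in AT2 cells and 1.40 in AT1 cells.

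The partners of Aurkb in the chromosomal passenger complex rose as well. Birc5 (survivin) measured 82.6, 73.2 and 98 FPKM in AT2 mutants, against 13.9, 16.8 and 24.1 FPKM in AT2 controls, and 35.9, 29.9 and 27.1 FPKM in AT1 mutants, against 2.33, 11.5 and 10 FPKM in AT1 controls. Neither pair of arms overlapped (2.17 ± 0.20 in AT2 and 2.04 ± 0.46 in AT1 cells; limma adjusted p = 0.00014 and 0.0232; 1.44 in AT1 cells without control A). Cdca8 (borealin) changed by 2.11 in AT2 cells and 2.00 in AT1 cells. Incenp, the scaffold of the complex, had a smaller AT1 change, at 15.3, 17.9 and 15.4 FPKM in mutants, against 5.27, 8.70 and 7.62 FPKM in controls (1.09 ± 0.19; limma adjusted p = 0.0116).

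Genes of centromeres and kinetochores rose in 5 of 5 in AT2 cells (median log2 change 1.95) and 6 of 6 in AT1 cells (1.60). Cenpf, a large kinetochore and nuclear matrix protein, measured 19.1, 16.9 and 21.0 FPKM in AT2 mutants, against 2.78, 2.02 and 5.64 FPKM in AT2 controls, and 5.73, 6.10 and 7.59 FPKM in AT1 mutants, against 0.565, 2.19 and 1.92 FPKM in AT1 controls. The arms were apart in both, and its ratio of means was 5.45 in AT2 and 4.16 in AT1 cells. Its AT1 log2 change without control A was 1.28. The NDC80 complex, which grips microtubule ends, was represented by Ndc80, Nuf2 and Spc25. Spc25 had the narrowest AT2 error, at 33.2, 27.3 and 37.0 FPKM in mutants, against 6.76, 6.89 and 7.48 FPKM in controls (2.05 ± 0.12), and changed by 1.60 in AT1 cells. Nuf2 changed by 1.94 in AT2 and 1.5 in AT1 cells, and Ndc80 by 1.86 ± 0.36 in AT1 cells (limma adjusted p = 0.0157). The remaining genes were Cenpa, the centromeric histone H3 variant, at 1.76 in AT2 and 1.74 in AT1 cells, and Cenpe, the kinesin of chromosome congression, at 1.95 and 1.25.

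Kinesins and other spindle proteins rose in 5 of 5 genes in AT2 cells and 6 of 6 in AT1 cells, with a narrow range in each, 1.86 (Kif2c) to 2.22 (Tpx2) in AT2 cells and 1.37 (Kif4) to 1.66 (Nusap1) in AT1 cells. Tpx2, which activates Aurka on the spindle, measured 37.9, 36.7 and 42.3 FPKM in AT2 mutants, against 6.09, 6.09 and 11.5 FPKM in AT2 controls. In AT1 cells Tpx2 measured 11.3, 13.4 and 12.8 FPKM in mutants, against 1.34, 5.75 and 4.89 FPKM in controls. The arms were separate in both. Hmmr, a spindle assembly factor and hyaluronan receptor, changed by 1.87 in AT2 and 1.41 in AT1 cells, and Kif11, the motor that pushes spindle poles apart, by 1.45 ± 0.32 in AT1 cells (limma adjusted p = 0.0225).

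Genes of chromosome structure held the one exception. Top2a (chromosome 11: 98992943 to 99024189, minus strand), which untangles sister DNAs, measured 103, 96.6 and 124 FPKM in AT2 mutants, against 16.5, 12.8 and 26.8 FPKM in AT2 controls, and 35.8, 31.6 and 39.2 FPKM in AT1 mutants, against 4.10, 13.1 and 13.4 FPKM in AT1 controls. Its AT2 change, 2.52 ± 0.24 (limma adjusted p = 0.00018), was the largest of the 34, and its AT1 change was 1.85 (1.35 without control A). Mki67, the antigen that coats mitotic chromosomes and marks cycling cells, changed by 2.21 ± 0.30 in AT2 (limma adjusted p = 0.000779) and 1.48 ± 0.38 in AT1 cells (limma adjusted p = 0.0363; 0.99 without control A).

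Condensin compacts chromosomes, and its genes Ncapd2, Ncapg, Ncaph and Smc2 rose by 1.90 to 2.1 in AT2 cells and by 1.22 to 1.34 in AT1 cells. The partner of Smc2 in the ring, Smc4 (chromosome 3: 69004738 to 69034623, plus strand), measured 28.7, 26.8 and 34.6 FPKM in AT1 mutants, against 22.3, 26.0 and 29.2 FPKM in AT1 controls. Here the arms overlapped, and the change of 0.21 ± 0.16 did not pass (95% interval -0.16 to 0.58; limma adjusted p = 0.384). The Smc4 level in control A was 80.8% of the mean of controls B and C, the highest share of the 40 genes, and Smc4 was the most abundant of the 40 in each AT1 control and in control lung. Smc2 measured 12.4, 10.5 and 14.8 FPKM in AT1 mutants, against 2.85, 5.57 and 6.58 FPKM in AT1 controls. Its arms did not overlap. The microRNA genes Mir15b and Mir16-2 lie within Smc4 on the same strand in the annotation, and both were listed at 0.

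Of the cytokinesis genes, the 4 listed for AT2 cells rose by 1.86 (Kif23 and Prc1) to 2.44 (Anln), and all 5 rose in AT1 cells, by 1.62 (Prc1) to 1.81 (Kif20a). Anln (chromosome 9: 22332012 to 22389188, minus strand), the anillin scaffold of the contractile ring, measured 38.7, 32.4 and 39.3 FPKM in AT2 mutants, against 5.15, 4.63 and 8.66 FPKM in AT2 controls (2.44 ± 0.20; limma adjusted p = 9.63e-05). AT1 values were 17.4, 13.0 and 15.1 FPKM in mutants, against 2.51, 4.62 and 4.82 FPKM in controls (1.73 ± 0.23; limma adjusted p = 0.00508; 1.49 without control A). No library crossed over in either cell type. Racgap1 and Kif23, which form the centralspindlin complex of the midzone, changed by 2.25 and 1.86 in AT2 cells and by 1.77 and 1.67 in AT1 cells. Kif20a, the kinesin that brings the passenger complex to the midzone, measured 11.1, 11.4 and 10.8 FPKM in AT1 mutants, against 0.725, 4.11 and 3.64 FPKM in AT1 controls. Among the 40 genes, 9 overlap a protein-coding gene on the other strand (Ccna2, Cdc20, Kif20a, Kif4, Ube2c, Nusap1, Ncapg, Prc1 and Cdca8), and since strand use in counting is not known from the sources used here, reads of partners cannot be told apart.

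**Figure D2:**
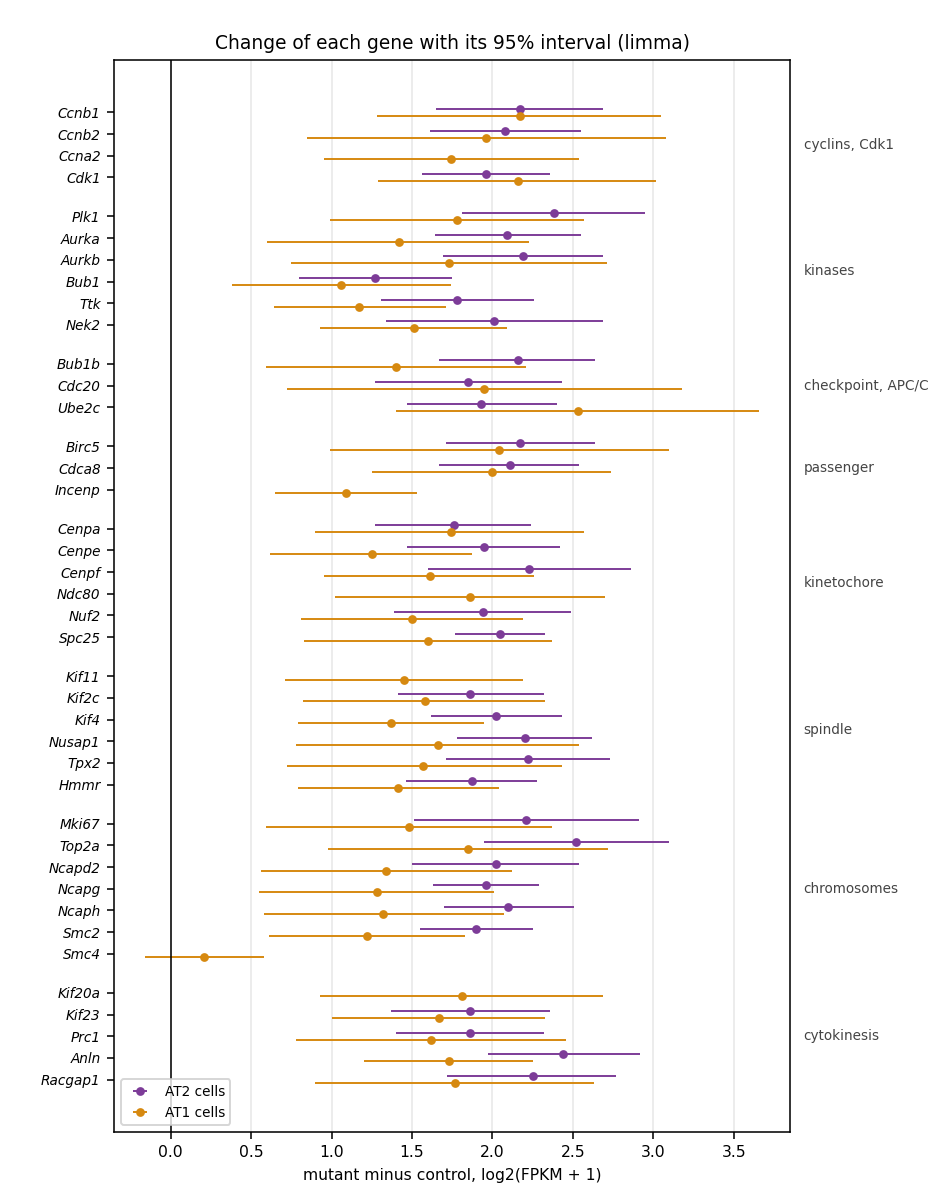
Log2 change, mutant minus control on log2(FPKM + 1), of each gene with its 95% interval from limma, AT2 cells above AT1 cells in each row. AT1 intervals are wider than AT2 intervals for nearly all genes, and the Smc4 interval of -0.16 to 0.58 is the only one that includes 0.

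In these genes, mutant libraries resembled each other more than control libraries did. In AT2 cells the median coefficient of variation over the 34 genes was 11.8% among mutants and 33.9% among controls, against 8.38% and 13.1% over all loci tested. In AT1 cells it was 13.2% among mutants and 53.7% among controls over the 40 genes, against 15.3% and 17.7% over all loci. In each cell type a single control library stood apart. AT1 control A was the lowest control in 40 of 40 genes, at a median of 30.3% of the mean of the other controls. AT2 control C, of day 9, was the highest in 34 of 34, at 173%. The spread of controls without these libraries was not computed. Summed over the 34 genes listed in both tables, AT2 mutants held 1430, 1344 and 1674 FPKM, against 274, 272 and 469 in AT2 controls. AT1 mutants held 558, 586 and 556 FPKM, against 61.0, 222 and 201 in AT1 controls, and mutant lung held 419 FPKM, against 139 in control lung. The AT2 table was made apart from the AT1 and lung table, so levels set across them are descriptive. In bulk samples a larger share of dividing cells and more RNA per dividing cell cannot be told apart.

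**Figure D3:**
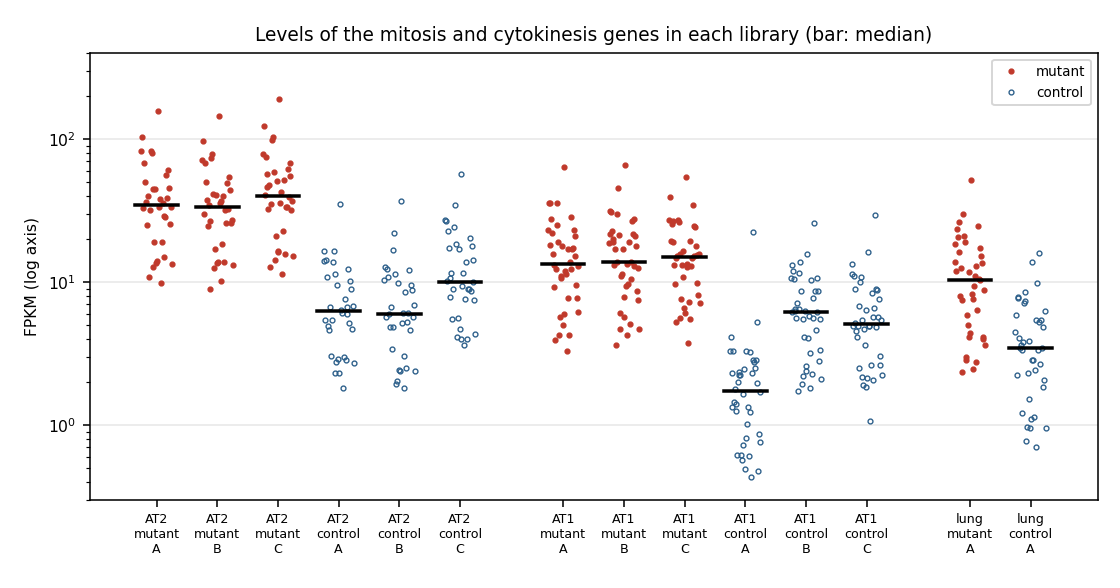
FPKM on a log axis of the 40 genes (34 in AT2 cells) in each of the 14 libraries, 1 point per gene, with the median as a bar. Medians lie between 33.4 and 40 FPKM in AT2 mutants and 6.01 and 10 FPKM in AT2 controls, and between 13.4 and 14.9 FPKM in AT1 mutants, against 1.74, 6.18 and 5.06 FPKM in AT1 controls A to C.

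The order of levels among the genes was set side by side between groups. Spearman's rho across genes was 0.97 between AT2 mutant and AT2 control means (34 genes), 0.94 between AT1 mutant and AT1 control means (40 genes) and 0.97 between AT2 and AT1 mutant means. It was 0.86 between mutant and control lung, and 0.82 between AT2 mutant means and control lung, the lowest of the 15 pairs of groups. The points share gene models and lengths, and genes are not independent replicates. Ttk or Bub1 was the lowest gene in each AT2 and AT1 mutant library and Ube2c the highest.

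Other cell types in the libraries were followed through marker lists. In AT2 cells, endothelial markers (8 genes) summed to 32.3 to 60 FPKM in mutants, against 91.3 to 148 in controls, leukocyte markers (7 genes) to 12.1 to 27.1 FPKM, against 44.2 to 142, and mesenchymal markers (5 genes) to 32.8 to 44.8 FPKM, against 75.3 to 142. Dcn, a fibroblast proteoglycan, was the one marker of another cell type called higher in AT2 mutants (log2 change 1.04; limma adjusted p = 0.000573). In AT1 cells, endothelial markers summed to 193 to 222 FPKM in mutants, against 260 to 583 in controls, leukocyte markers (8 genes) to 101 to 192 FPKM, against 174 to 466, and mesenchymal markers (7 genes) to 879 to 1284 FPKM, against 1188 to 1706. None of these AT1 markers was called higher. Airway markers summed to 33.9 to 37.6 FPKM in AT2 mutants (2 genes), against 61.6 to 72.1 in AT2 controls, and to 128 to 1175 FPKM in AT1 mutants (4 genes), against 881 to 4623 in AT1 controls. Erythroid markers stayed at or under 60 FPKM in each AT2 and AT1 library, and no marker was at 0 in every library of its table. Mitochondrially encoded transcripts took 8.85 to 12.8% of summed FPKM in AT2 mutants, against 14.0 to 33.7% in AT2 controls. The part of these cells and shares in the result was not tested.

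Whether the change differed between cell types was tested as the AT2 effect minus the AT1 effect over the 34 genes in both tables. None passed in either direction (lowest limma adjusted p = 0.187), where 4.02% of 10336 loci were called with a larger effect in AT2 cells and 4.28% with a smaller one, and 1 gene, Anln, had an unadjusted p under 0.05. The difference ran from -0.60 (Ube2c, 95% interval -1.91 to 0.72) to 0.78 (Ncaph, -0.11 to 1.67) on the log2 scale, with a median of 0.49 against 0.07 over all loci. It was above 0 in 31 of the 34 genes and in 5825 of the 10336 loci. With a pseudocount of 0.1 the median was 0.35, against 0.05 over all loci. Anln differed by 0.71 ± 0.33 and Cdk1 by -0.20 ± 0.46 (-1.20 to 0.81). These intervals do not show that the 2 cell types changed alike. The difference of effects was not fitted without AT1 control A. In the AT1 fit alone, the median log2 change of the 40 genes was 1.60 with control A and 1.18 without it. The outcome depended on scaling: with libraries brought to equal totals, 7 genes (Anln, Cenpe, Kif4, Ncapg, Ncaph, Smc2 and Ttk) passed as larger in AT2 cells, with a median of 1.12 when 34.1% of all loci passed in that direction and their median was 0.67, so that the share of these genes was below that of all loci. Cell type cannot be told apart here from age (day 5 against days 8 and 9), from the cross or from the separate normalization of the tables.

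In whole lung, all 40 genes were higher in the mutant library than in the control library, a direction taken by 51.8% of 13717 loci, and 28 were at least 2-fold higher on log2(FPKM + 1), as were 11.9% of loci; none was at least 2-fold lower, as were 11.4%. With 1 library per arm there is no replicate check and no test. The median log2 ratio was 1.25, against 0.04 over all loci. Plk1 had the largest ratio, at 26.3 FPKM in mutant lung and 3.44 in control lung, or 7.63 times. Ccnb1 followed at 12 FPKM, against 2.24, and Cdca8 at 15.2 FPKM, against 3.46. The smallest ratios were those of Ncaph (13.0 FPKM in mutant lung, against 9.79, or 1.33 times), Spc25 (8.80, against 6.31) and Smc4 (24.6, against 15.9). Small RNA loci took 2.61% of summed FPKM in mutant lung, against 32.9% in control lung. With libraries at equal totals, those loci and mitochondrial ones left out, 18 genes were at least 2-fold higher (8.07% of all loci), at a median of 0.99 where all loci had a median of -0.27. Leukocyte markers summed to 324 FPKM in mutant lung, against 216 in control lung, but the genes were split. Of these 8 markers 4 had a log2 ratio above 0, 3 were at least 2-fold higher and 1 at least 2-fold lower, with a median of 0.09. Endothelial markers summed to 629 FPKM in mutant lung, against 1700 in control lung, and mesenchymal markers to 800 FPKM, against 1773. The part of these cells in the lung values was not tested.

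**Figure D4:**
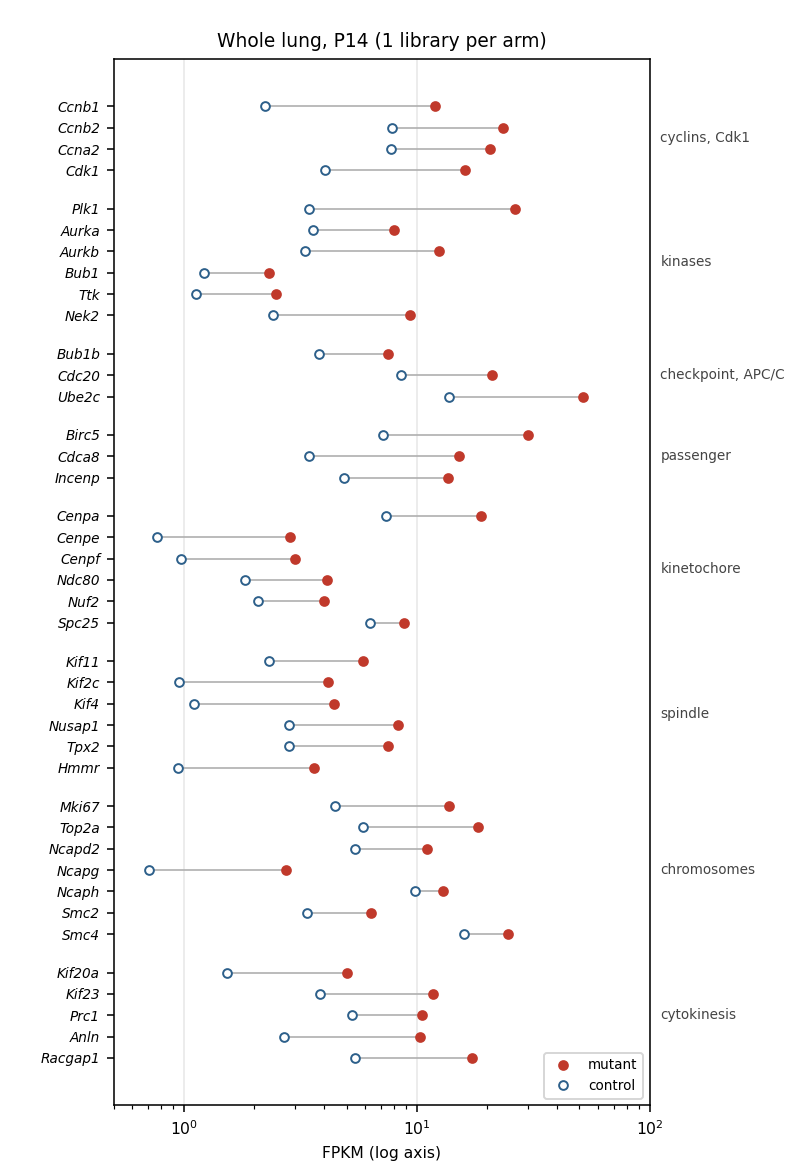
FPKM on a log axis of the 40 genes in whole lung at day 14, filled points for the mutant library and open points for the control library, joined by a line per gene. Every line runs to the right, most of all that of Plk1 (26.3 against 3.44 FPKM) and least that of Ncaph (13.0 against 9.79 FPKM).

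Another 118 mitosis genes, listed for the same processes, had smaller medians. In AT2 cells 84 of 95 tested were higher and 3 lower (median log2 change 1.22), and in AT1 cells 56 of 111 were higher and none lower (median 0.74; 49 higher without control A and 9 without mutant A). The shares called higher over all loci were 32.4% in AT2 and 11.6% in AT1 cells. Spindle and kinesin genes had medians of 1.72 in AT2 cells (18 of 18 higher) and 1.25 in AT1 cells (15 of 20), kinetochore genes 1.47 (18 of 18) and 0.95 (16 of 24), and cytokinesis genes 1.52 (6 of 7) and 1.12 (5 of 7). Subunits and regulators of the anaphase-promoting complex had medians of 0.57 in AT2 cells (9 of 12 higher, 1 lower) and 0.25 in AT1 cells (2 of 15 higher). Cohesin and separase genes had medians of 0.52 (4 of 6) and 0.23 (2 of 9). The AT1 count of the anaphase-promoting complex group was near the share of all loci. The counts of cohesin and separase (9 genes in AT1 and 6 in AT2 cells) and of cytokinesis (7 in each) rest on few genes. These groups are too small to be set against the shares of all loci. Without control A the AT1 counts called higher were 14 of 20 for spindle and kinesin genes, 16 of 24 for kinetochore genes, 4 of 7 for cytokinesis genes, 1 of 15 for the anaphase-promoting complex and 1 of 9 for cohesin and separase. In lung 24 of 108 were at least 2-fold higher (11.9% of all loci) and 1, Ska2 of the kinetochore, at least 2-fold lower (4.17 FPKM in mutant lung, against 12.7 in control lung).

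Within these groups, the called gene with the largest change was taken as the example. In AT2 cells Ect2, the exchange factor that starts the contractile ring, measured 38.1, 35 and 39.1 FPKM in mutants, against 6.75, 5.98 and 8.03 FPKM in controls (2.28 ± 0.11; limma adjusted p = 1.33e-05). Foxm1, a transcription factor of mitotic genes, measured 25.9, 21.6 and 29.3 FPKM in AT2 mutants, against 5.12, 4.78 and 8.90 FPKM in AT2 controls (1.91 ± 0.22; limma adjusted p = 0.000346). The AT2 arms were separate for both genes. The other AT2 examples were the chromosome-arm kinesin gene Kif22 at 2.04, the condensin II gene Ncapg2 at 2.02, the kinetochore gene Cenpm at 1.92 and the checkpoint gene Kntc1 at 1.79. Mastl (the Greatwall kinase) changed by 1.76, Fbxo5 (Emi1), an inhibitor of the anaphase-promoting complex, by 1.70, the centriole kinase gene Plk4 by 1.68 and Espl1 (separase) by 1.48. In AT1 cells the examples were led by Cep55, which recruits the abscission machinery, at 10.4, 10.4 and 12.2 FPKM in mutants, against 0.856, 2.38 and 3.13 FPKM in controls (2.02 ± 0.29; limma adjusted p = 0.00639; 1.68 without control A). Psrc1 of the spindle changed by 1.84, Cenph of the inner kinetochore by 1.78, the Cdk1 subunit gene Cks1b by 1.71, the checkpoint gene Mad2l1 by 1.71, the cohesion factor gene Cdca5 by 1.48, Ncapg2 by 1.23, Mybl2 (B-Myb) by 1.08, the centriole gene Stil by 0.92 and Fbxo5 by 0.73. The 3 lower in AT2 mutants, chosen after their values were seen, were Pcnt of the centrosome (-0.86), Lin37 of the MuvB complex (-0.45) and Anapc4 (-0.39). With libraries at equal totals none of them passed, and the values of Lin37 and Anapc4 turned to 0.09 and 0.18.

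Genes of the preceding S phase, 38 in the list, were higher in 32 of 32 in AT2 cells (median log2 change 1.59) and in 27 of 38 in AT1 cells (1.03). Without control A 25 were higher in AT1 cells. In lung 14 of 37 were at least 2-fold higher (0.68). Over all loci, 32.4% were called higher in AT2 cells and 11.6% in AT1 cells (9.17% without control A). In lung 11.9% of loci were at least 2-fold higher. The medians over all loci were 0.09 in AT2 cells, 0 in AT1 cells and 0.04 in lung. Rrm2, a subunit of ribonucleotide reductase, measured 26.6, 23.6 and 33.5 FPKM in AT1 mutants, against 4.32, 12.9 and 12.7 FPKM in AT1 controls, and control A was again the lowest library. Mcm2 of the replicative helicase changed by 2.12 ± 0.13 in AT2 (limma adjusted p = 3.65e-05) and 1.05 ± 0.20 in AT1 cells (limma adjusted p = 0.0148). Pcna, the sliding clamp, changed by 1.14 and 1.00.

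**Figure D5:**
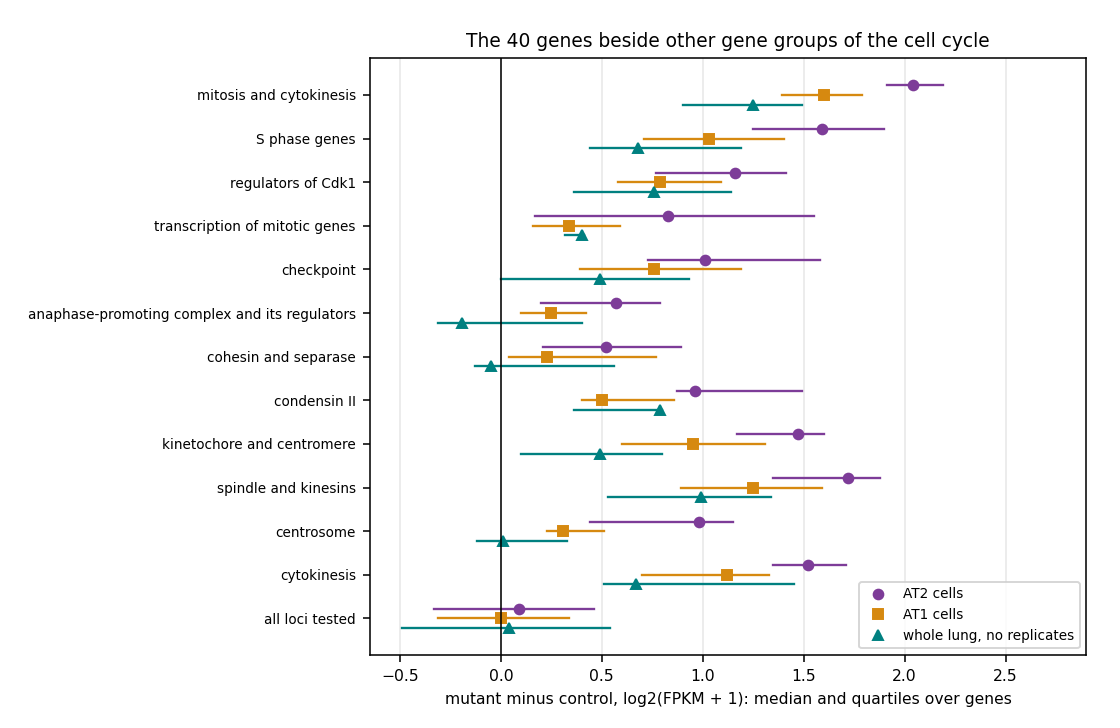
Median log2 change, mutant minus control on log2(FPKM + 1), with quartiles over genes, for the 40 mitosis and cytokinesis genes, S phase genes, groups of other mitosis genes and all loci tested, in AT2 cells, AT1 cells and whole lung (no replicates). The 40 genes have the highest medians (2.04, 1.60 and 1.25), and the groups for the anaphase-promoting complex and for cohesin have the lowest medians of the gene groups in each.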

How the data were processed

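RNA-seq values of 14 mouse libraries (6 AT2, 6 AT1, 2 whole lung) were used. Per the submitters' processing notes, the tools were Cufflinks 2.2.1, Bowtie2 2.2.3 and TopHat2 2.0.14 on mm10, with Cuffdiff for AT1 and lung and Cuffnorm for AT2. Per the labels' protocols, reads were paired and libraries were made after messenger RNA isolation. Annotation and strand use are not given in the sources used. The authors deposited FPKM values per library, in one table for AT1 and lung (23793 loci) and another for AT2 (32609 loci), normalized separately. Log2 fold changes deposited by the authors served only to describe their column. FPKM holds no counts, so depth and counting error are unknown, and AT2 totals moved with mitochondrial transcripts.

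FPKM was transformed as log2(FPKM + 1), loci reaching 1 FPKM in at least 3 libraries of a comparison were kept, and limma 3.58.1 (R 4.3.3; mean-dependent prior variance, two-sided, Benjamini-Hochberg over all loci kept, threshold 0.05) was fitted to AT2 and AT1 libraries separately and to the 12 together for the difference of effects. Lung loci at 1 FPKM in either library were compared by a 2-fold threshold with no test. The steps were tested on simulated data. Alternatives were a pseudocount of 0.1, no filter, 3 other scalings (equal totals, equal totals without mitochondrial and small RNA loci, median of ratios), a constant prior variance, a replicate block, age as a covariate (AT2 fit), and leaving out each library (AT2 and AT1 fits). The day 8 libraries alone were added after seeing the data. The difference of effects was not refitted with age as a covariate or with any library left out. Same-lettered AT1 libraries deviated together (r = 0.24, 0.36 and 0.48 for A to C, from residuals over loci), whereas AT2 letters did not (0.11, -0.12 and 0.13). The labels do not say that letters pair libraries, and these correlations cannot show what same-lettered libraries share. The reported AT1 fit therefore leaves the letters out, and the fit with letters as a block is an alternative to it.

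The 40 genes, the lists of other genes and the markers were chosen with earlier results of these data known. The genes named were all 40, the called gene with the largest change per group of other mitosis genes and cell type, Mcm2, Pcna and Rrm2 of the S phase list, and Nkx2-1. Gene positions are from GENCODE M21 on GRCm38, promoters from RefSeq. Tables and plots were made with matplotlib 3.10.9, NumPy 2.4.6, pandas 2.3.3 and Python 3.11.15.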

Additional observations from a re-analysis of the deposited data

How the results depend on the processing

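Directions of the 40 genes did not reverse under any alternative run. Over the AT1 alternatives 114 of 507 values of called genes lost the call and 393 kept it, and in AT2 cells 510 of 510 kept it. In the difference of effects, where no alternative left out a library, 231 of 238 stayed uncalled. Members called higher in AT1 cells numbered 24 with no filter on low values and 4 to 38 when 1 library was left out (median log2 change 1.18 to 1.83), against 39; in AT2 cells the count was 34 throughout (median 1.93 to 2.28). With libraries at equal totals the AT2 median was 2.57, or 2.31 without mitochondrial and small RNA loci, where all loci moved to 0.61 and 0.35; the AT2 minus AT1 median was 1.12 with 7 members called. The lung median was 1.55 with a pseudocount of 0.1 and 0.99 at equal totals without mitochondrial and small RNA loci, where 18 members were 2-fold higher.

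Over all loci, AT1 calls were 1462 higher and 785 lower; leaving out 1 library gave 278 to 1146 higher and 195 to 844 lower, and equal totals 686 higher. AT2 calls were 3767 higher and 2589 lower; equal totals gave 6410 higher and 927 lower, equal totals without mitochondrial and small RNA loci 1468 lower, day 8 alone 1622 lower, and leaving out 1 library 2944 to 3835 higher and 1991 to 2257 lower. The difference of effects had 415 higher and 442 lower; equal totals gave 3534 and 167, and equal totals without mitochondrial and small RNA loci 2322 higher. Of the other mitosis genes, AT1 calls higher were 32 with no filter, 36 at equal totals and 9 to 52 without 1 library, against 56; 1 was lower at equal totals without mitochondrial and small RNA loci, 1 with median-of-ratios scaling, and 0 to 1 without 1 library. In AT2 cells 80 to 84 were higher and 3 to 4 lower without 1 library, and 0 were lower at equal totals, 1 at equal totals without mitochondrial and small RNA loci; at equal totals Ensa (0.52), Lin37 (0.09) and Anapc4 (0.18) turned from values below 0. The cause of these changes was not tested.

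The replicate block, with letters taken as pairs, left 39 AT1 and 34 AT2 members called higher and changed no other call of a member. Over all loci AT1 calls became 1907 higher and 1359 lower, and the difference of effects gave 673 higher and 672 lower. Same-lettered AT2 libraries did not deviate together, and the block left 34 members called there. Depth in reads is unknown and 23 of the 40 genes averaged under 5 FPKM in AT1 controls.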

Other observations

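The fold changes in the authors' deposited table do not stand beside their own genes for AT1 cells. Of 1179 AT1 loci at least 2-fold changed by the deposited FPKM values, 0.254% had a log2 fold change within 0.06 of the one recomputed from their row, and the correlation across loci (which are not independent replicates) was 0.00. Sorted by size, the 23793 values of both columns differed by at most 3.39e-15, so the same values stood in another row order. Ube2c, for example, had a recomputed log2 change of 2.53, and the authors' deposited table gave -0.00601 in its row. For AT2 cells 100% of 2050 such loci lay within 0.06 (r = 1.00). All changes above were computed from the FPKM columns.

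Matches to the searched forms of the 2 promoter elements were not present in every gene that rose. Ccnb1, with CCAAT but no match to the searched CHR forms in its window, changed by 2.17 in both cell types. Nuf2, with no match to either element, changed by 1.94 in AT2 and 1.5 in AT1 cells. Birc5, Ncaph and Nusap1 also had no match to either element in the window, with AT1 changes of 2.04, 1.32 and 1.66. Other forms of the CHR were not searched. No relation between motifs and changes was tested.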
